A study of Oncorhynchus mykiss with 9 samples.

Results

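The microRNAs miR-216, miR-217 and miR-375 are the small RNAs best known from the pancreas, and they were followed here in the liver of rainbow trout under lack of oxygen. They were taken by name, as every entry that begins with one of these 3 numbers, which gave 6 of the 1413 entries in the deposited tables. Small-RNA libraries had been made from liver of wild-type rainbow trout under moderate hypoxia (3 libraries), under acute hypoxia (3 libraries) and from control fish (3 libraries), with an exposure of 12 h in both hypoxia groups per the series' design text. Neither age nor sex is labelled, nor whether each library stands for a single fish, so p-values rest on the spread between libraries, which may be technical. Other RNA classes and the reoxygenation arm are not analysed here.

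A microRNA is cut from a hairpin precursor and guides silencing complexes to messenger RNAs that pair with its seed, the bases next to its 5′ end. In mammals miR-216a, miR-216b and miR-217 lie in a shared cluster and are enriched in the acinar cells that make digestive enzymes. In mouse and zebrafish miR-375 marks the endocrine islets, where it restrains insulin secretion in the mouse and is needed for islet formation in the zebrafish, and in mammals it is also made in the pituitary and in other endocrine and epithelial cells. Trout have no compact pancreas: exocrine tissue lies scattered in the fat and mesentery around the pyloric caeca and vessels. The question asked of the data is whether the 3 miRNAs move together from library to library. A shared piece of pancreas in the liver samples need not make them do so. That depends on its share in the variation of each miRNA and on its mix of acinar and islet cells. Where the reads came from was not tested.

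The 3 sequences that carry nearly all reads of these entries are shown first, followed by miR-375-z, a longer form with 5 reads. All are in DNA letters as deposited, with the seed (bases 2 to 8) in capitals. The final letters x, y and z of the names are printed as deposited and have no meaning given by the labels.
miR-216-x: tAATCTCAgctggcaactgtga
miR-217-x: tACTGCATcaggaactgattgg
miR-375-y: tTTGTTCGttcggctcgcgtta
miR-375-z: tTTGTTCGttcggctcgcgttaat
The 3 abundant forms are each 22 bases long and have 3 different seeds, so none of them shares a seed with another. The fourth line, miR-375-z, is miR-375-y with 2 more bases at its 3′ end and so has the same seed. None of the other entries in the table carried any of these seeds, and none lay within 3 edits of a member; the closest differed from miR-216-x by 7 edits. Where in the genome they lie is not analysed here.

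Abundance is given in TPM as deposited, which scales the reads of an entry to a common library total. Read counts and library depths were recovered from the spacing of the low TPM values. Of the 6 entries, miR-375-y was the most abundant, with a mean of 113.6 TPM over the 9 libraries, which ranked 94 of 1413. The acinar miRNA of mammals, miR-216-x, had a mean of 36.6 TPM (rank 137), and miR-217-x, which shares its cluster in mammals, had 5.7 TPM (rank 249). These 3 were among the 481 entries that averaged 1 TPM or more and were tested; the remaining 3 had 3, 6 and 5 reads in all 9 libraries together and did not enter the test.

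For both numbers with more than 1 entry, a single form held almost all reads. In the miR-216 pair, miR-216-x held 3773 of 3776 reads, or 99.92% (exact 95% interval 99.77 to 99.98%), and miR-216-y held 3 reads, 1 in each group. Among the miR-375 entries, miR-375-y held 11741 of 11752 reads, or 99.91% (99.83 to 99.95%). The entry miR-375-x had 0 reads under moderate hypoxia, 4 under acute hypoxia and 2 in control, and the longer miR-375-z had 3 under moderate hypoxia, 0 under acute hypoxia and 2 in control. Exact permutation tests of the mean TPM of these low entries gave two-sided p from 0.4 to 1, but 3 libraries against 3 cannot go below 0.1, so no difference could have passed 0.05. For miR-217 the table holds 1 entry, with 605 reads. Such intervals cover counting error only, since the files name no molecular identifiers and PCR copies may be among the reads.

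Depth was enough to see the 3 tested forms in each library: 1 read was worth 0.0605 to 0.118 TPM, in libraries of 8443332 to 16515753 reads. The liver miRNA miR-122-x, made by hepatocytes, stood at 504743 to 525228 TPM under moderate hypoxia, 405699 to 460731 TPM under acute hypoxia and 307409 to 500523 TPM in control, so the tissue label and its defining miRNA go together. Moderate hypoxia libraries 1 and 2 stood apart: 35 entries named for an imprinted miRNA cluster of placental mammals summed to 251.5 and 307.3 TPM there. In the other 7 libraries this sum was 2.92 to 5.15 TPM. The list had been drawn up as a sign of foreign RNA. Whether these reads, or reads of the members in moderate hypoxia libraries 1 and 2, came from another animal was not tested. The member tests that compare these 2 libraries, the Pearson correlations between members, the likeness of miR-8159-x and the list counts are also given without them. Likeness to any other entry is given over all 9 libraries only.

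In every hypoxia library but 1, miR-216-x was more abundant than in any control library. Moderate hypoxia libraries 1 to 3 held 22.2, 58.8 and 37.4 TPM, acute hypoxia libraries 43.9, 67.2 and 41.0 TPM and control libraries 27.8, 10.9 and 20.5 TPM. Moderate hypoxia library 1 lay within the control range, while the acute hypoxia libraries were all above it. Group means were 39.5 ± 18.4 TPM under moderate hypoxia, 50.7 ± 14.3 TPM under acute hypoxia and 19.7 ± 8.49 TPM in control (SD, n = 3 each).

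Control was also the lowest group for miR-217-x, at a lower level throughout. Moderate hypoxia libraries 1 to 3 held 4.31, 13.6 and 5.81 TPM, acute hypoxia libraries 3.88, 9.0 and 6.83 TPM and control libraries 3.09, 1.27 and 3.42 TPM. Neither hypoxia group overlapped with control, although the counting intervals of acute hypoxia library 1 and control library 3 did (2.84 to 5.18 TPM from 46 reads, against 2.32 to 4.85 TPM from 31 reads). Means were 7.92 ± 5.01 TPM under moderate hypoxia, 6.57 ± 2.57 TPM under acute hypoxia and 2.59 ± 1.16 TPM in control (SD, n = 3 each).

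A flatter course was seen for the islet miRNA miR-375-y. Moderate hypoxia libraries 1 to 3 held 150.5, 117.1 and 130.5 TPM, acute hypoxia libraries 121.3, 93.6 and 86.5 TPM and control libraries 108.6, 96.5 and 117.8 TPM. All 3 groups overlapped. Means were 132.7 ± 16.8 TPM under moderate hypoxia, 100.5 ± 18.4 TPM under acute hypoxia and 107.7 ± 10.7 TPM in control (SD, n = 3 each). The highest library exceeded the lowest by 1.74 times for miR-375-y, against 6.15 times for miR-216-x and 10.8 times for miR-217-x.

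**Figure D1:**
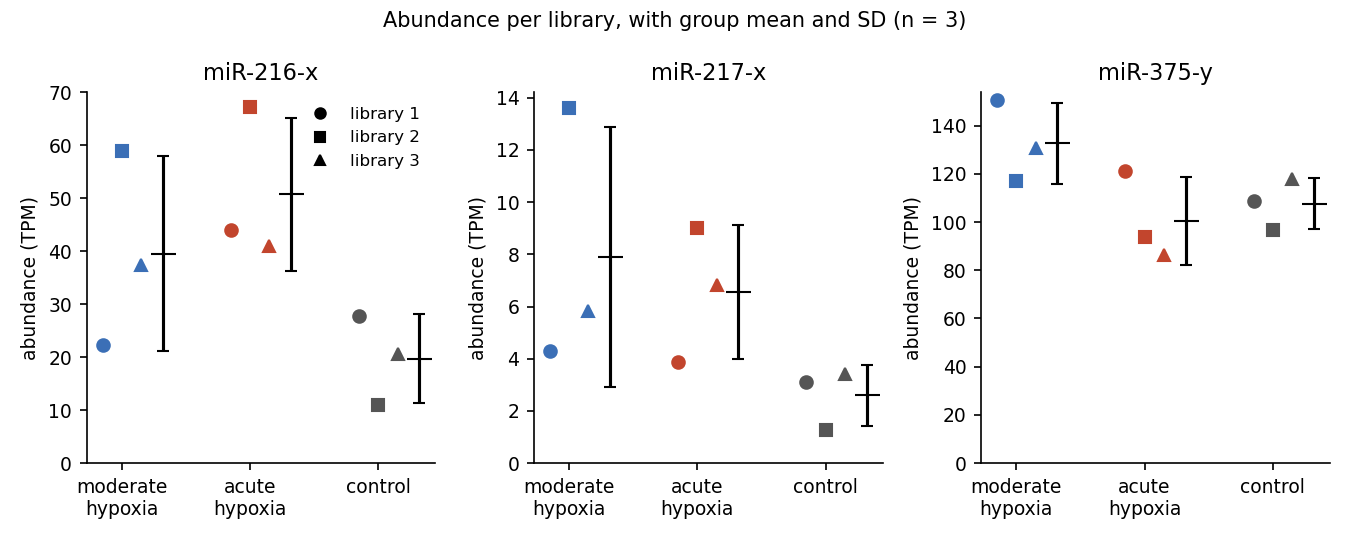
Abundance in TPM (vertical axes, from 0) of the 3 tested miRNAs in each library of the moderate hypoxia, acute hypoxia and control groups; symbols mark the library number, and black bars the group mean and SD (n = 3). The acute hypoxia libraries of miR-216-x (41.0 to 67.2 TPM) lie above its control libraries (10.9 to 27.8 TPM), and the groups of miR-375-y overlap.

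Within the moderate hypoxia group the libraries varied with a coefficient of variation of 46.6% for miR-216-x, 63.2% for miR-217-x and 12.7% for miR-375-y, where counting alone gives 4.19%, 9.38% and 2.36%. Under acute hypoxia the observed values were 28.3%, 39.1% and 18.3%, with 4.6%, 12.9% and 3.21% from counting. In control they were 43.0%, 44.7% and 9.9%, with 7.17%, 19.9% and 3.08% from counting.

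Moderate hypoxia was set against control to see whether that exposure changed these miRNAs in liver. A limma model of log2(TPM + 1) was fitted to all 481 entries, with Benjamini-Hochberg adjustment, and 0 of the 3 tested members passed at 0.05, in a comparison where 25.6% of the tested entries passed (38 higher and 85 lower; 54 higher and 48 lower with median of ratios scaling). The log2 change was 1.23 for miR-217-x (SE 0.42, 95% interval 0.31 to 2.16, adjusted p = 0.0521) and 0.95 for miR-216-x (SE 0.399, 0.07 to 1.83, adjusted p = 0.0979). At unadjusted p these 2 of 3 were under 0.05, as were 39.9% of all tested entries, and 1 of 3, miR-217-x, lay above control without overlap, as did 12.5%. The change of miR-375-y was 0.30 (SE 0.211, -0.17 to 0.76, adjusted p = 0.336). The median of the 3 was 0.95, beside -0.22 over all tested entries, and 93.1% of these had a lower change than miR-217-x, 91.5% a lower one than miR-216-x and 80.9% a lower one than miR-375-y.

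The side of the threshold on which miR-217-x and miR-216-x fell depended on the scaling. With the deposited totals, to which miR-122-x contributes a large part, the median change of all tested entries was -0.22. Scaling by the median of ratios, which centres this median by construction, moved it to 0.01. The changes then were 1.48 for miR-217-x (limma adjusted p = 0.0309) and 1.24 for miR-216-x (limma adjusted p = 0.0464). In the authors' deposited table, whose test is not named, both passed as higher under moderate hypoxia. The log2 changes there were 1.61 for miR-217-x (false discovery rate 0.00884) and 1.0 for miR-216-x (0.0364). In that list 10.7% of 1413 entries passed, 113 as higher and 38 as lower, so higher was the more common direction. Single libraries moved the changes both ways. Without control library 2 they were 0.93 for miR-217-x and 0.60 for miR-216-x (limma adjusted p = 0.161 and 0.318), and without moderate hypoxia library 2 they were 0.80 and 0.62 (0.165 and 0.292). Without moderate hypoxia library 1 they were 1.53 and 1.30 (limma adjusted p = 0.0433 and 0.0577), so that miR-217-x passed. Without moderate hypoxia libraries 1 and 2, the 2 with the imprinted-cluster names, both changes were 0.98 (limma adjusted p = 0.341 for miR-217-x and 0.324 for miR-216-x) and that of miR-375-y was 0.28 (0.745); the lone moderate hypoxia library then takes its variance from the other groups. In library 1 the sum of those names was 251.5 TPM and miR-216-x read 22.2 TPM. In library 2 the sum was 307.3 TPM and miR-216-x read 58.8 TPM. Whether the sum and miR-216-x are related was not tested.

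Acute hypoxia against control asks the same for the acute exposure. Here no entry of the 481 passed the limma test (0%), at unadjusted p 47 were under 0.05 (9.77%), and the authors' deposited table likewise had 0 of 1139 at a false discovery rate under 0.05. The log2 change was 1.37 for miR-216-x (SE 0.399, 95% interval 0.50 to 2.25, limma adjusted p = 0.331) and 1.07 for miR-217-x (SE 0.42, 0.15 to 2.0, adjusted p = 0.399), both under 0.05 unadjusted. The change of miR-375-y was -0.11 (SE 0.211, -0.57 to 0.36, adjusted p = 0.922). Groups did not overlap for miR-216-x and miR-217-x, both higher, and 8.94% of the tested entries were so separated as higher. In the list of changes, 99.2% of the tested entries lay below miR-216-x and 97.9% below miR-217-x, against 29.1% below miR-375-y. The comparison shares its control libraries with the previous one, so the low reading of control library 2 enters both: without it the changes were 1.02 for miR-216-x and 0.77 for miR-217-x (limma adjusted p = 0.27 and 0.435).

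Acute hypoxia set against moderate hypoxia asks whether the exposures differ. Of the 3 members 0 passed the limma test, where 30.6% of the tested entries passed (110 higher and 37 lower; 54 higher and 69 lower with median of ratios scaling). Also 0 of 3 were under 0.05 unadjusted, against 44.5% of entries, and 0 of 3 had groups without overlap, against 52.8%. In the authors' deposited table none of the 6 entries passed, where 11.7% of 1413 did. The log2 change was 0.42 for miR-216-x (SE 0.399, 95% interval -0.45 to 1.30, adjusted p = 0.443), -0.16 for miR-217-x (SE 0.42, -1.08 to 0.77, adjusted p = 0.797) and -0.41 for miR-375-y (SE 0.211, -0.87 to 0.06, adjusted p = 0.16). These intervals leave room for changes of more than 2-fold in miR-216-x and miR-217-x. Trimmed mean of M values scaling also centres the changes by construction, and the median change of all entries was then 0.01 in place of 0.32. With it miR-375-y passed as lower, with a log2 change of -0.81 (limma adjusted p = 0.0228). In that fit 127 of the 481 tested entries passed, 57 as higher and 70 as lower. Without moderate hypoxia libraries 1 and 2 the changes were 0.39 for miR-216-x, 0.09 for miR-217-x and -0.39 for miR-375-y (limma adjusted p = 0.677, 0.958 and 0.588).

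**Figure D2:**
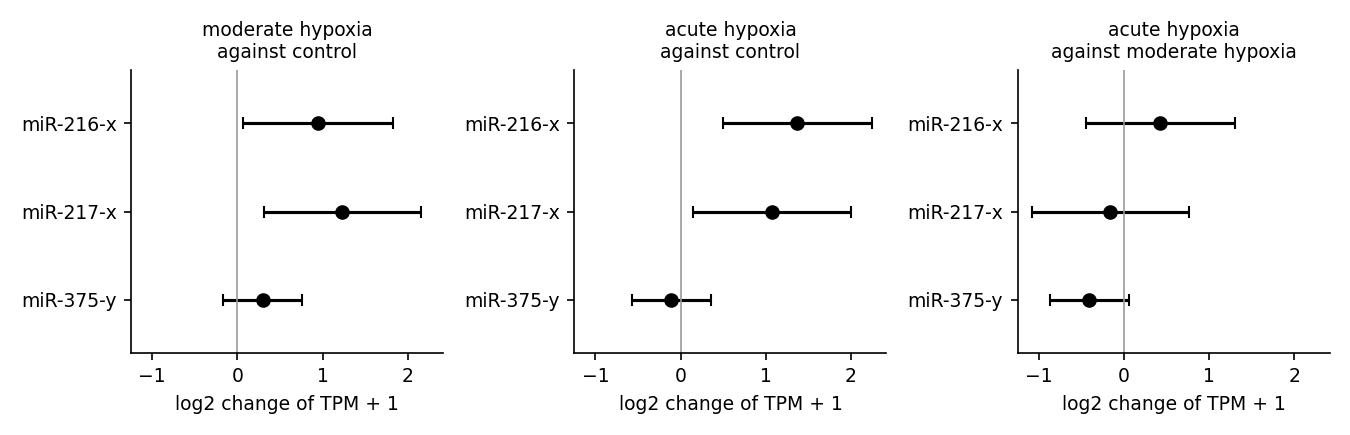
Log2 change of TPM + 1 (horizontal axis) with its 95% interval from the limma model, for the 3 tested miRNAs in each comparison; the grey line marks no change. The intervals of miR-216-x and miR-217-x lie above 0 against control in both hypoxia groups (0.07 to 1.83 and 0.31 to 2.16 under moderate, 0.50 to 2.25 and 0.15 to 2.0 under acute hypoxia), before adjustment over all entries.

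Across libraries, miR-216-x and miR-217-x moved together. Over the 9 libraries the Pearson correlation of their log2(TPM + 1) was 0.891 (exact permutation p = 0.00166, adjusted over the 3 pairs p = 0.00499), and Spearman's rho was 0.817 (exact permutation p = 0.0108, adjusted p = 0.0323). Both were lowest in control library 2. Their highest readings fell in moderate hypoxia library 2 and acute hypoxia library 2.

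The relation was also seen inside the groups, where it did not pass after adjustment. As deviations from the group means, r was 0.866 over the 9 libraries (exact permutation within groups, p = 0.0278, adjusted p = 0.0833). When the 2 libraries farthest from the median of miR-216-x were left out, control 2 and control 3, r was 0.771 (exact permutation p = 0.0442, adjusted p = 0.133), so that the call after adjustment rests on them. Without control library 2 alone it was 0.802 (exact permutation, adjusted p = 0.0537), and without any other single library between 0.877 and 0.944. Without the 2 libraries with the imprinted-cluster names, r was 0.922 over 7 libraries (exact permutation, adjusted p = 0.0155).

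By contrast, no relation of miR-375-y to either of them was detected, although 9 libraries and its span of 1.74 times could miss a modest one. Its correlation with miR-216-x was -0.116 (exact permutation p = 0.768, adjusted p = 0.967; rho = -0.233, p = 0.552, adjusted p = 0.776). With miR-217-x it was -0.0169 (exact permutation p = 0.967, adjusted p = 0.967; rho = -0.117, p = 0.776, adjusted p = 0.776). As deviations from the group means these were -0.206 and -0.464 (exact permutation p = 0.593 and 0.278, adjusted p = 0.593 and 0.417). Leaving out the 2 libraries farthest from the median of the first miRNA of each pair gave -0.557 and -0.522 (exact permutation p = 0.194 and 0.229, both adjusted to 0.229). Without the 2 libraries with the imprinted-cluster names r was -0.0355 with miR-216-x and -0.14 with miR-217-x (exact permutation, both adjusted p = 0.942). In control library 2, where miR-216-x and miR-217-x had their lowest readings, miR-375-y stood at 96.5 TPM, near the 93.6 TPM of acute hypoxia library 2, where miR-216-x had its highest.

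**Figure D3:**
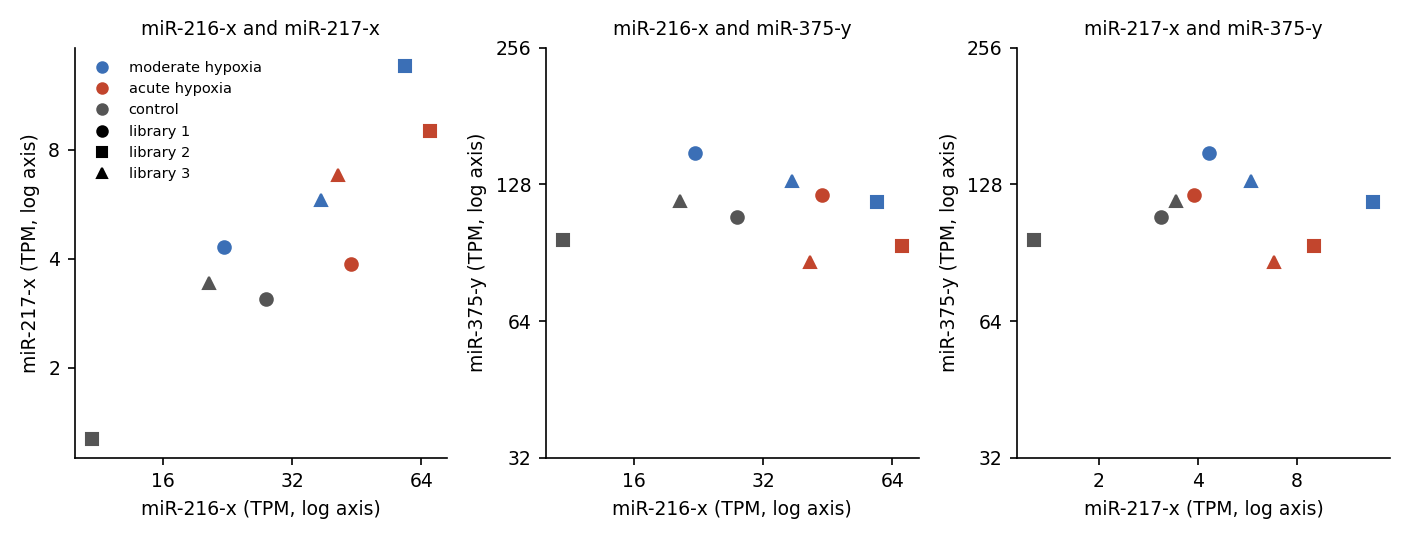
Abundance of each pair of the 3 tested miRNAs against each other (TPM, log2-spaced axes), 1 point per library, with colour for the group and symbol for the library number. The points of miR-216-x and miR-217-x rise together (r = 0.891), while those of miR-375-y stay within 86.5 to 150.5 TPM.

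The ratio of reads within a library sets the pairs side by side. For each read of miR-217-x there were 5.15, 4.31 and 6.44 reads of miR-216-x under moderate hypoxia, 11.3, 7.46 and 6.0 under acute hypoxia, and 9.0, 8.62 and 6.0 in control. The ratio thus spanned 2.62 times over the 9 libraries, less than the span of either miRNA (6.15 and 10.8 times). It was not constant beyond counting error: moderate hypoxia library 2 had 4.31 (exact 95% interval 3.70 to 5.05) and acute hypoxia library 1 had 11.3 (8.35 to 15.6). Over the 7 libraries without the imprinted-cluster names it ran from 6.0 to 11.3. Reads of miR-375-y per read of miR-216-x spanned 6.37 times, from 1.39 (1.25 to 1.55) in acute hypoxia library 2 to 8.85 (7.27 to 10.9) in control library 2.

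**Figure D4:**
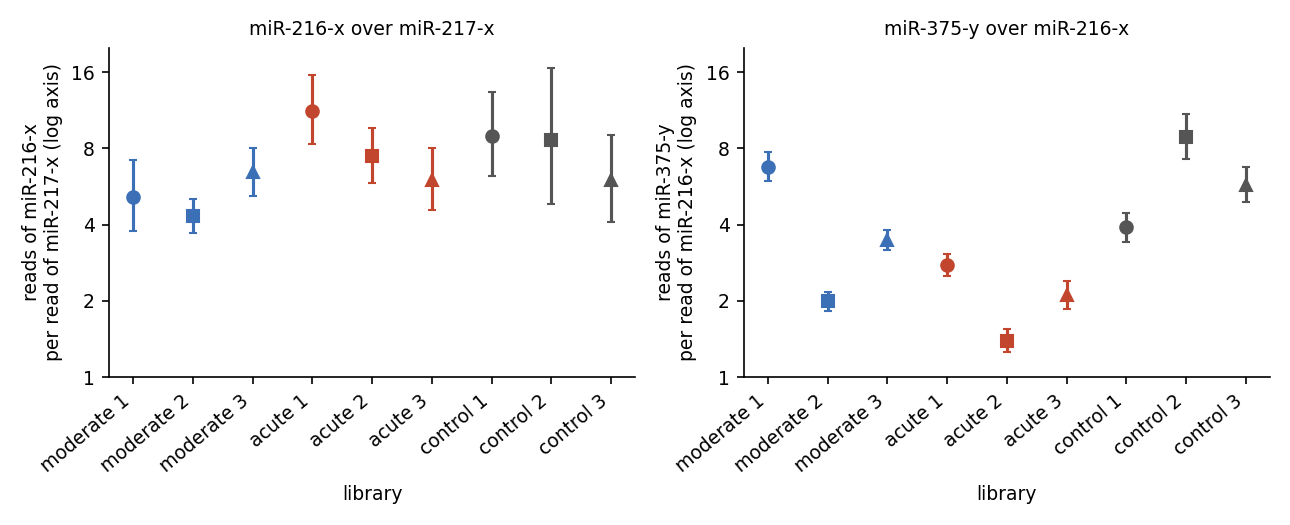
Reads of miR-216-x per read of miR-217-x (left) and of miR-375-y per read of miR-216-x (right) in each library (log axis), with exact 95% counting intervals; colour marks the group. The left ratio runs from 4.31 to 11.3 and the right from 1.39 to 8.85.

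Among all tested entries, the one most like both miR-216-x and miR-217-x was miR-8159-x, a miRNA of 22 bases whose sequence shares no seed with them:
miR-8159-x: tCAGTAACtggaatctgtccct
Over the 9 libraries its log2(TPM + 1) had a Pearson correlation of 0.927 with miR-216-x and 0.938 with miR-217-x, and of 0.179 with miR-375-y. Over the 7 libraries without the imprinted-cluster names these were 0.94, 0.913 and 0.236, and miR-8159-x then ranked 1 for miR-216-x and 2, after miR-216-x, for miR-217-x. Moderate hypoxia libraries 1 to 3 held 25.7, 81.6 and 48.7 TPM, acute hypoxia libraries 36.6, 50.1 and 32.7 TPM and control libraries 23.3, 7.4 and 21.9 TPM. Like them it was lowest in control library 2, and within both hypoxia groups it was highest in library 2. Reads of miR-216-x per read of miR-8159-x ran from 0.721 to 0.864 under moderate hypoxia and from 1.2 to 1.34 under acute hypoxia. In control this ratio ran from 0.935 to 1.47. Because miR-8159-x was picked for its likeness, its values are given as a description with no test.

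Within the list of 480 other entries ranked by likeness, miR-217-x came directly after miR-8159-x for miR-216-x, at rank 2, and miR-216-x likewise at rank 2 for miR-217-x. These were the only entries with a correlation of at least 0.8 for either of them. The median correlation with all other tested entries was 0.00049 for miR-216-x and -0.138 for miR-217-x. By the same measure miR-375-y ranked 314 for miR-216-x and 177 for miR-217-x. The next in line were far less abundant or less alike: a predicted miRNA, tCTGTTTGtgctgtttaaccc, with 0.777 for miR-216-x at 0.771 to 1.9 TPM, and miR-1788-y with 0.666 for miR-217-x at 0.441 to 10.7 TPM.

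Other entries stood closest to miR-375-y. A predicted miRNA listed under 4 names, tGCTGGTGacattgtctttga, had a correlation of 0.91 at 0.797 to 2.97 TPM, a second one, tGAGAACTagcgcaccattggt, had 0.896 at 0.829 to 2.52 TPM, and miR-182-x, known from sensory and neuroendocrine cells, had 0.849 at 0.228 to 5.12 TPM. Mean TPM under moderate hypoxia and in control was 3.84 and 0.778 for miR-182-x. For miR-183-x it was 5.01 and 5.24, and for miR-96-x 0.956 and 2.35, so these did not share its rise. Which cells gave the reads of miR-182-x was not tested. In all, 9 entries reached 0.8 with miR-375-y, where the 4 names of the first sequence count as 4 entries. All such correlations are over the same 9 libraries and share their depth and scaling, so they describe likeness only.

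**Figure D5:**
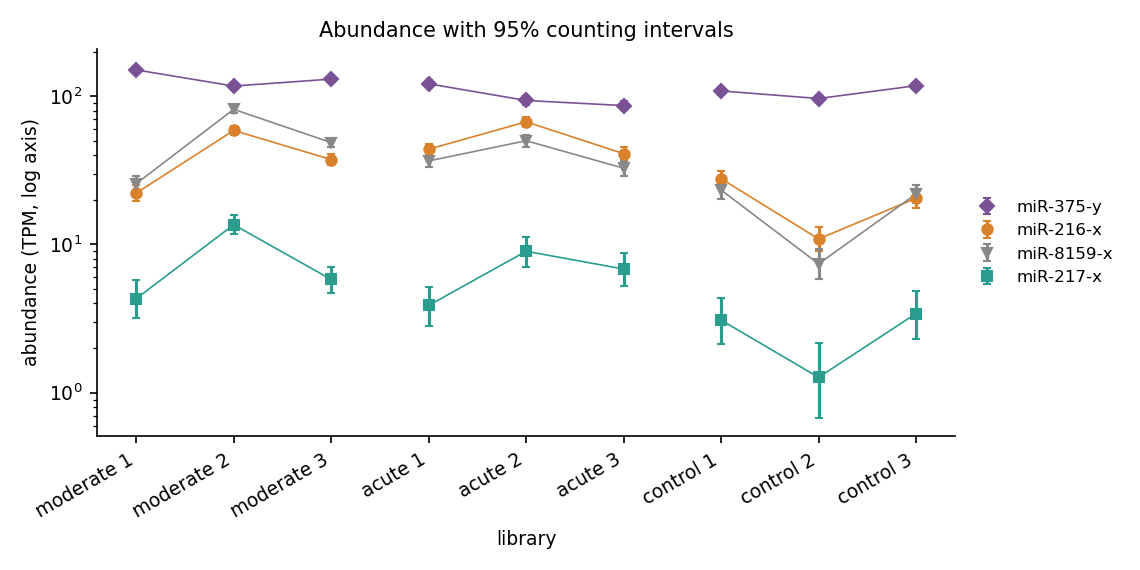
Abundance (TPM, log axis) of miR-375-y, miR-216-x, miR-8159-x and miR-217-x in the 9 libraries, grouped as moderate hypoxia, acute hypoxia and control, with exact 95% counting intervals; lines join libraries of a group only to guide the eye, since libraries have no order. The profiles of miR-216-x, miR-8159-x and miR-217-x peak in library 2 of both hypoxia groups and dip to their lowest values in control library 2 (10.9, 7.4 and 1.27 TPM), while miR-375-y is highest in library 1 of both hypoxia groups and has 96.5 TPM in control library 2.

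Other miRNAs reported in pancreas or islets were looked at by the same test. From a list of miR-7, miR-148, miR-153 and miR-802, 6 of 8 entries were tested, and none passed the limma test under moderate hypoxia against control (median log2 change -0.21, beside -0.22 over all entries) or under acute hypoxia against control (0.01, beside 0.08). Among them miR-148-y, miR-148-x and miR-148-z averaged 6990, 900 and 141 TPM over the 9 libraries, against 36.6 TPM for miR-216-x. Control library 1 held 17812 TPM of miR-148-y, and the other libraries held 4273 to 6594 TPM. How much of these levels came from pancreas was not tested. Between acute and moderate hypoxia 1 of the 6 passed, where 30.6% of all tested entries did. This was miR-153-y, higher under acute hypoxia and known as an islet and nerve miRNA of mammals, which averaged 7.12 ± 0.812 TPM in the acute and 2.75 ± 0.701 TPM in the moderate libraries (SD, n = 3 each; log2 change 1.13, limma adjusted p = 0.0188). With trimmed mean of M values scaling its change was 0.81 (limma adjusted p = 0.0561), and it did not pass without moderate hypoxia library 3 (0.96, adjusted p = 0.063), acute hypoxia library 2 (1.05, 0.0704), acute hypoxia library 3 (1.16, 0.0561) or moderate hypoxia libraries 1 and 2 together (1.46, 0.109). The islet miRNA of mammals miR-7-x stood at 10.8, 16.4 and 19.2 TPM in moderate hypoxia libraries 1 to 3, at 10.6, 20 and 17.6 TPM in acute hypoxia libraries and at 27.5, 21.3 and 16.1 TPM in control libraries. In control library 2, where miR-216-x was lowest, miR-7-x stood between the other control values. So did miR-148-x, miR-148-y and miR-148-z, whereas miR-7-y and miR-153-y were highest of the control libraries there, at 3.99 and 7.6 TPM. The pancreas and liver miRNA miR-802-z was near 0, at up to 0.237 TPM.

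Marker miRNAs of other tissues were set beside these values. The summed level of miR-216, miR-217 and miR-375 was 173.8 to 189.6 TPM under moderate hypoxia, 134.6 to 169.8 TPM under acute hypoxia and 108.8 to 141.7 TPM in control, most of it miR-375-y. Gut and other epithelial miRNAs (17 entries) summed to 6742 to 9126 TPM under moderate hypoxia, 7380 to 12718 TPM under acute hypoxia and 6470 to 9671 TPM in control, and their lowest sum was in control library 3, not in control library 2. Over the 9 libraries miR-200-y averaged 3460 TPM in this list, miR-194-x 2380 TPM, miR-215-x 1010 TPM and miR-215-z 414 TPM. The part of hepatocytes in these levels was not tested. The entries miR-194-x, miR-215-x and miR-215-z are also among the gut entries that passed the limma test below. Nervous and neuroendocrine miRNAs (11 entries) summed to 142.6, 144.2 and 17.9 TPM in moderate hypoxia libraries 1, 2 and 3, 24.0 to 27.1 TPM under acute hypoxia and 24.8 to 34.2 TPM in control. Their sum was thus high in the same 2 libraries as the imprinted-cluster names. Mean TPM under moderate hypoxia and in control was 50.1 and 8.47 for miR-9-z, 36.8 and 6.54 for miR-124-y, and 3.84 and 0.778 for miR-182-x. It was 1.49 and 1.32 for miR-9-y and 5.01 and 5.24 for miR-183-x. The means of miR-137-y (1.9 and 4.02) and miR-96-x (0.956 and 2.35) were lower under moderate hypoxia. For moderate hypoxia against control the limma test passed 2 higher and 3 lower of 13 tested gut and epithelial entries, 1 higher and 1 lower of 7 nervous ones, 1 higher of 5 hepatocyte ones and 7 higher of 9 of the imprinted cluster, where 25.6% of all tested entries passed. For acute hypoxia against control it passed 0 in each list, and for acute against moderate hypoxia 2 higher and 2 lower, 2 lower, 1 lower and 8 lower in the same order, where 30.6% of all did. Except for miR-127-y, the tested imprinted-cluster entries met the filter of 1 TPM only through moderate hypoxia. For miR-434-y the means were 7.72 TPM there, 0.0942 TPM under acute hypoxia and 0 TPM in control. The same holds for miR-182-x among the nervous entries. The filter thus favoured these calls, and the shares over all entries are no measure for them. Without moderate hypoxia libraries 1 and 2, where 2.08% of all tested entries passed for moderate hypoxia against control, 1 gut entry passed, as higher, and 0 in the other lists. For acute against moderate hypoxia, where 5.82% of all then passed, it was 1 higher and 1 lower among the gut entries, 1 higher among the nervous ones and 0 in the other lists. The part of these tissues in the levels of miR-216-x, miR-217-x and miR-375-y was not tested. In such bulk samples fewer cells of a type and less RNA per cell cannot be told apart.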

How the data were processed

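Small RNA was measured in 9 liver libraries, 3 per group. Libraries were made from Trizol-extracted RNA with standard Illumina protocols, per the labels' protocols; the aligner, counting step, genome build and prediction tool are not stated there. The authors deposited 3 stacked tables, 1 per pair of groups, whose abundance signal is headed TPM, with log2 fold changes, p-values and FDR per the file headers; the authors' test is not named. A deposited value of 0.01 stands in for 0. The tables that hold the moderate hypoxia group list the same 1413 entries and were joined; the separate table of acute hypoxia with control (1139 entries) served as an alternative and holds 4 of the 6 members, with the same sequences. Values up to 1000 reads were whole multiples (within 0.1 read) of 1 step per library, which gave the reads.

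Values were analysed as log2(TPM + 1) with limma-trend (limma 3.58.1, R 4.3.3), fitted to all 9 libraries with 3 group means. The fitting code was also run on simulated counts. Their relative spread was set alike for every entry and was not taken from the members. Correlations used exact permutation of pairings (Python 3.11.15, numpy 2.4.6; scipy 1.17.1 for exact intervals). Named entries were all members, per tested member the 3 most alike entries of another sequence, and pancreas-list members, whether or not they passed. Members of the nerve, gut, hepatocyte and imprinted-cluster lists are given mainly as counts and sums, with some members named. Some alike entries are left out for length. The members and lists were chosen with earlier results of these data known. Nothing in the labels says that replicate numbers pair libraries. Same-numbered libraries' deviations from the group means correlated from -0.206 to 0.264, and 1 of 9 pairs was over 0.1. For the 18 differently numbered pairs they correlated from -0.336 to 0.252. Whether a number marks a shared fish, tank or day cannot be told from these values. The other settings tried were a pseudocount of 0.1 or 5 TPM, a mean of 10 TPM or no minimum, 3 other scalings, a replicate block and libraries left out; leaving out moderate hypoxia libraries 1 and 2 from the likeness ranks and list counts was chosen after seeing the data.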

Additional observations from a re-analysis of the deposited data

How the results depend on the processing

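No member passed in the main analysis, and under the alternatives the number that passed for moderate hypoxia against control was 1 with a pseudocount of 0.1 TPM or trimmed mean of M values scaling (miR-217-x), 2 with the median of ratios or the total without miR-122-x (miR-216-x and miR-217-x), and 0 to 1 with 1 library left out (miR-217-x without moderate hypoxia library 1). For acute against moderate hypoxia it was 1 with trimmed mean of M values or median of ratios scaling (miR-375-y). For acute hypoxia against control it was 0 in every fit run, the separate table included. The scalings differ by construction in how much miR-122-x weighs, and other causes were not tested.

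Over all entries, moderate hypoxia against control had 123 calls, against 75 among entries of at least 10 TPM, 10 without moderate hypoxia libraries 1 and 2, 51 without control library 2 and moderate hypoxia library 2 (chosen after seeing the data), and 61 to 129 with 1 library left out (62 and 61 without moderate hypoxia library 1 or 2). Acute against moderate hypoxia had 147 calls, against 83 among entries of at least 10 TPM, 28 without moderate hypoxia libraries 1 and 2, and 73 to 186 with 1 library left out (96 and 73 without moderate hypoxia library 1 or 2, 75 and 78 without acute hypoxia library 2 or 3). The stricter filter tests 195 entries. With a pseudocount of 0.1 TPM, moderate hypoxia against control had 124 calls among 481 entries. It had 100 with trimmed mean of M values scaling, 102 with the median of ratios and 106 with the total without miR-122-x. Acute against moderate hypoxia had 127 calls with trimmed mean of M values and 123 with median of ratios scaling, also among 481. With the replicate block the comparisons had 117, 0 and 140 calls and 0 members passed in each, so the block changed no call of a member.

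Directions against control held for all 3 tested members in all these fits. Without control library 2 and moderate hypoxia library 2 the moderate hypoxia changes were 0.26 for miR-216-x and 0.50 for miR-217-x, and without control library 2 and acute hypoxia library 2 the acute hypoxia changes were 0.80 and 0.54 (both pairs chosen after seeing the data). For acute against moderate hypoxia the log2 change of miR-217-x turned positive, at 0.09 without moderate hypoxia libraries 1 and 2, and ran from -0.46 to 0.27 with 1 library left out. The correlation of miR-216-x and miR-217-x was 0.866 as deviations from the group means and 0.771 without the 2 farthest libraries, with adjusted exact permutation p of 0.0833 and 0.133, and ran from 0.802 to 0.944 with 1 library left out; it was 0.866 to 0.911 under the other pseudocounts and scalings. That of miR-216-x and miR-375-y turned positive at 0.161, 0.138 and 0.0408 under trimmed mean of M values, median of ratios and the total without miR-122-x, and ran from -0.504 to 0.0915 with 1 library left out. That of miR-217-x and miR-375-y turned positive at 0.0133 (pseudocount 0.1), 0.318, 0.287 and 0.218 (the same scalings) and ran from -0.316 to 0.146. The cause was not tested. These correlation settings, other than the deviations and the 2 fits without 2 libraries, were chosen after seeing the data. The count test on recovered reads that had been listed was not run. Depth limits miR-217-x most, with 13 reads in control library 2 (0.674 to 2.17 TPM), and the 3 low entries, at or below the floor of 3 reads, 0.182 to 0.355 TPM, in each library.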
